A study of Mus musculus with 8 samples.

Results

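The CatSper complex and 2 further sperm ion channels were followed in synchronized mouse testes with and without a germ cell deletion of Spdya, at a stage before sperm are made. The 10 genes were taken by symbol from the deposited table of 54532 genes, of which 22046 are protein-coding: the pore subunits Catsper1, Catsper2, Catsper3 and Catsper4, the auxiliary subunits Catsperb, Catsperd, Catsperg1 and Catsperg2, the potassium channel gene Kcnu1 and the proton channel gene Hvcn1. All 10 had a row in the table. RNA-seq of whole testes covered 4 Sync-Spdya fl/fl mice (fl/fl) and 4 Sync-Spdya cKO mice (cKO), each giving 1 library. The Sync-Spdya fl/fl mice carry floxed Spdya without Cre. The Sync-Spdya cKO mice also carry Ddx4-CreERT2, a Cre that tamoxifen activates and that the Ddx4 promoter drives in germ cells, so somatic cells keep the gene. Both groups are of C57BL/6J background, both received the synchronization (a blocker of retinoic acid synthesis, then retinoic acid, RA), and both received tamoxifen, by the labels at RA7.5 and RA8.5. Testes were taken at RA11.5, that is 11.5 days after RA, in mid-late pachynema. The study asked how loss of SpdyA, an activator of CDK2 at telomeres, affects pachytene spermatocytes, and RNA-seq compared their transcripts.

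CatSper is the calcium channel of the sperm tail. Its pore is built from 4 different alpha subunits, CATSPER1 to CATSPER4, and it is surrounded by large auxiliary subunits (beta, gamma, delta and epsilon) and by small cytoplasmic proteins such as CATSPERZ and EFCAB9. Calcium entry through it drives the whip-like hyperactivated beat that sperm need to fertilize. KCNU1 (SLO3) is the sperm potassium channel that sets membrane voltage together with its partner LRRC52, and HVCN1 is a voltage-gated proton channel that is also made by immune cells. The proteins act in spermatozoa, while the genes are switched on in germ cells at different times, some in spermatocytes and others only in spermatids.

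Values are FPKM: fragments counted on a gene, divided by its length in kilobases and by a library size that the authors scaled. The libraries held 13978342 to 19583091 fragments on genes. Replicate 1 of the fl/fl group stood apart, with 0.464% of fragments on mitochondrial genes against 2.20% to 3.74% in the other libraries. Spdya itself had 21.3 ± 1.76 FPKM (SD, n = 4) in fl/fl and 24.1 ± 5.45 FPKM (SD, n = 4) in cKO testes. The floxed exon was not measured apart from the rest of the gene, so this level does not check the labels. Defining spermatid genes were near 0: Prm1, Prm2, Tnp1, Tnp2 and Acrv1 had at most 0.580 FPKM in any library, and the 7 spermatid markers, mostly Spaca1 and Tssk6, summed to 4.81 to 12.3 FPKM in fl/fl and 5.98 to 7.99 FPKM in cKO testes. By contrast the pachytene genes Ldhc and Hspa2 had 248 to 631 FPKM and 253 to 451 FPKM.

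At this stage transcripts were found for part of the complex. The 4 auxiliary subunits and 1 of the 4 pore subunits, Catsper2, had a mean above 1 FPKM. The other pore subunits were at or near 0 in both groups, and Kcnu1 and Hvcn1 lay between 0.1 and 1 FPKM. On average Catsperg1 was highest with 27.8 FPKM, followed by Catsperg2 with 25.2, Catsper2 with 13.2, Catsperd with 8.30, Catsperb with 4.59, Kcnu1 with 0.595, Hvcn1 with 0.367, Catsper3 with 0.174, Catsper4 with 0.0194 and Catsper1 with 0 FPKM. The ranges over the 8 libraries overlapped for each neighbouring pair in this order except Catsperb and Kcnu1, which were separated by a gap from 2.77 down to 0.723 FPKM. Within single libraries the order was steadier: Catsperg1 was above Catsperg2, and Catsperd above Catsperb, in 8 of 8 libraries.

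**Figure D1:**
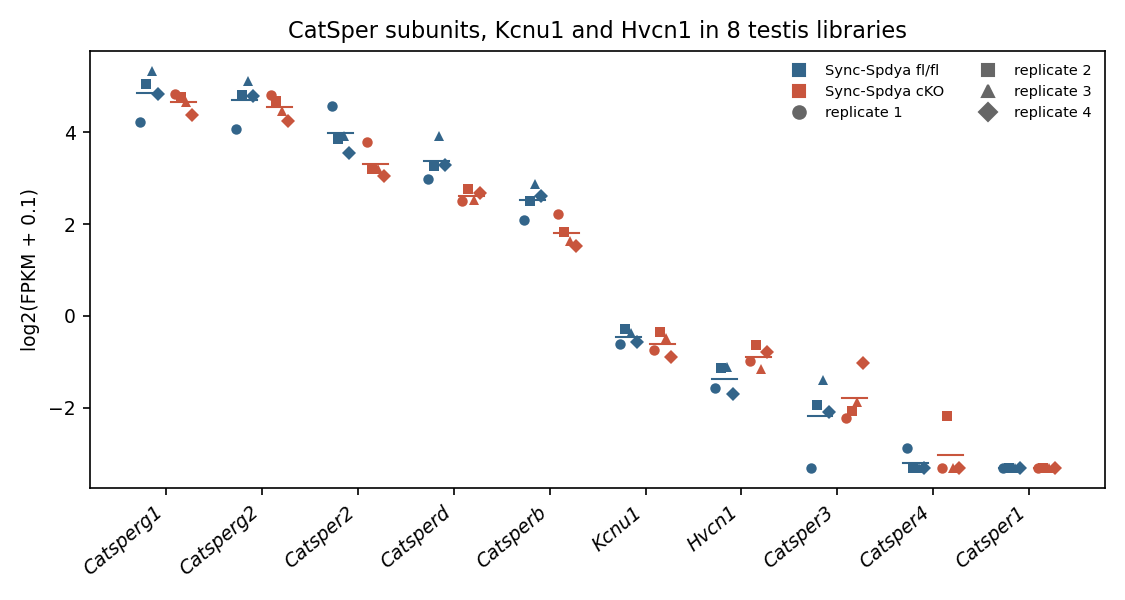
Level of each of the 10 genes in the 8 testis libraries, as log2(FPKM + 0.1), with fl/fl libraries in blue, cKO libraries in red, a marker shape for each replicate number and a line at the group mean. The 5 genes on the left have means of 4.59 to 27.8 FPKM, and Catsper1 is at 0 in all 8 libraries.

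Transcripts of the pore were represented by Catsper2 (ENSMUSG00000033486, chromosome 2 of GRCm38, 121392631 to 121413792, minus strand), which codes for 1 of the 4 pore-forming alpha subunits. Catsper2 had 23.8, 14.4, 15.1 and 11.7 FPKM in fl/fl replicates 1 to 4, and 13.8, 9.17, 9.13 and 8.13 FPKM in cKO replicates 1 to 4. The groups overlapped, because cKO replicate 1 lay above fl/fl replicate 4, while the other 3 cKO libraries were below each fl/fl library. The log2 fold change was -0.66 (standard error 0.22, 95% interval -1.16 to -0.17, limma adjusted p = 0.339). The exact permutation test over the 70 assignments of libraries, two-sided, gave p = 0.0571, and the smallest p this design allows is 0.0286. Leaving out 1 library at a time gave log2 fold changes of Catsper2 from -0.83 (without cKO replicate 1) to -0.46 (without fl/fl replicate 1, its highest library). The exons of Catsper2 share 18 bases with Pdia3, a protein disulfide isomerase gene on the other strand that had 162 ± 35.1 and 156 ± 12.8 FPKM (SD, n = 4 each).

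The other pore genes gave few fragments. Catsper1 (chromosome 19, 5335741 to 5344153) had 0 fragments in all 8 libraries, which by a floor of 3 fragments allows up to 0.0751 to 0.111 FPKM depending on the library. Catsper4 (chromosome 4, 134211970 to 134227383) had 1 fragment in fl/fl replicate 1, 4 fragments in cKO replicate 2 and none in the other 6 libraries. Catsper3 (chromosome 13, 55784568 to 55808998) had 0, 4, 6 and 3 fragments in the fl/fl libraries and 3, 3, 4 and 9 fragments in the cKO libraries. In FPKM, Catsper3 ranged from 0 to 0.282 in fl/fl and from 0.114 to 0.389 in cKO testes, with a log2 fold change of 0.39 (95% interval -0.57 to 1.34, limma adjusted p = 0.795). The value of Catsper3 was 0.0055 without fl/fl replicate 1, 0.13 without cKO replicate 4 and 0.65 without fl/fl replicate 3. No difference was detectable for these 3 genes at this depth. Floors and fragment counts cover counting error only.

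Of the auxiliary subunits, Catsperd and Catsperb had the lower values in the cKO testes, without passing the test across all genes. Catsperd (ENSMUSG00000040828, chromosome 17, 56628143 to 56664456, plus strand) codes for the delta subunit. It had 7.86, 9.49, 15.1 and 9.69 FPKM in fl/fl testes and 5.62, 6.68, 5.70 and 6.27 FPKM in cKO testes. The groups did not overlap, and fl/fl replicate 3 was the highest library. The ratio of the group means was 0.576, and the log2 fold change was -0.75 (standard error 0.18, 95% interval -1.15 to -0.35, limma adjusted p = 0.178). The exact permutation test, two-sided, gave 0.0286, the smallest p it can give. Leaving out 1 library at a time gave -0.87 (without fl/fl replicate 1) to -0.56 (without fl/fl replicate 3).

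Catsperb (ENSMUSG00000047014, chromosome 12, 101404653 to 101626009, plus strand) codes for the beta subunit. It had 4.14, 5.57, 7.24 and 6.02 FPKM in fl/fl testes and 4.57, 3.45, 2.98 and 2.77 FPKM in cKO testes. Here cKO replicate 1 lay above fl/fl replicate 1, and all other cKO libraries were below the fl/fl range. The log2 fold change was -0.72 (standard error 0.20, 95% interval -1.16 to -0.28, limma adjusted p = 0.242), and the exact permutation test, two-sided, gave p = 0.0571. Leaving out 1 library at a time gave -0.87 (without fl/fl replicate 1) to -0.60 (without fl/fl replicate 3).

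The gamma subunit is coded by a pair of similar genes on chromosome 7, Catsperg1 (ENSMUSG00000049676, 29181321 to 29214035) and Catsperg2 (ENSMUSG00000049123, 29697219 to 29727032), both on the minus strand. Catsperg1 had 18.7, 33.0, 40.6 and 28.4 FPKM in fl/fl testes and 28.5, 27.1, 25.3 and 20.8 FPKM in cKO testes. Its cKO values lay within the fl/fl range, since fl/fl replicate 1 was the lowest of all 8 libraries. The log2 fold change of Catsperg1 was -0.20 (95% interval -0.67 to 0.27, limma adjusted p = 0.790), from -0.41 without fl/fl replicate 1 to -0.04 without fl/fl replicate 3, its highest library. Catsperg2 had 16.9, 28.0, 34.8 and 27.5 FPKM against 28.2, 25.5, 22.1 and 18.8 FPKM, with a log2 fold change of -0.15 (95% interval -0.62 to 0.32, limma adjusted p = 0.847), from -0.35 to -0.01 without the same libraries. Between these paralogs, 23.7% of the different 100-base windows in Catsperg1 transcripts also occur in Catsperg2 transcripts (GENCODE vM21), so how the fragments divide between the pair is uncertain. Catsperg2 was 0.850 to 0.991 times Catsperg1 in each library.

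Set against Catsperg1 within each library, the beta subunit and Catspere2, a gene of the epsilon subunit described below, gave groups that did not overlap. Catsperb was 0.169 to 0.222 times Catsperg1 in the fl/fl libraries and 0.118 to 0.160 times in the cKO libraries. Catspere2 was 0.188 to 0.325 times Catsperg1 in fl/fl and 0.129 to 0.154 times in cKO libraries. Catsperd was 0.288 to 0.421 times Catsperg1 in fl/fl and 0.197 to 0.302 times in cKO libraries, a small overlap. Catsper2 was 0.371 to 1.28 times Catsperg1 in fl/fl and 0.338 to 0.486 times in cKO libraries, a clear overlap. The highest ratio of each of these genes was in fl/fl replicate 1, which had the lowest Catsperg1. The level of Catsperg1 is itself uncertain because of its paralog. How often ratios of other genes give groups without overlap was not computed. These ratios were chosen after the values were seen, so no test is given. They do not depend on library scaling.

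Promoter sequences are shown for the delta and beta subunits, which had the lowest cKO to fl/fl ratios among the 10 genes, and for Catsperg1 as the most abundant. RefSeq start sites (GRCm38.p6) were found for 6 of the 10 genes. Each window holds up to 250 bases before the start, read 5′ to 3′ on the gene's strand and ended at the first base that the table places in the gene. Capitals mark the letters AACNG, the core bound by MYB factors such as MYBL1 of pachytene spermatocytes, and GTTNCC, a half-site of RFX factors, on either strand. A further motif, TGACG, the half-site of the cAMP response element, had no match in the windows shown.
Catsperd, chr17:56627893-56628142, plus strand: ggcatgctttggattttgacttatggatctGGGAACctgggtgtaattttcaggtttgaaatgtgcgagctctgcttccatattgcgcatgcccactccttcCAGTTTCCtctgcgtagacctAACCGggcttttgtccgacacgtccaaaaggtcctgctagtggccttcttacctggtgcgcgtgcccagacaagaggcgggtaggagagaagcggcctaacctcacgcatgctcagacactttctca
Catsperb, chr12:101404423-101404652, plus strand: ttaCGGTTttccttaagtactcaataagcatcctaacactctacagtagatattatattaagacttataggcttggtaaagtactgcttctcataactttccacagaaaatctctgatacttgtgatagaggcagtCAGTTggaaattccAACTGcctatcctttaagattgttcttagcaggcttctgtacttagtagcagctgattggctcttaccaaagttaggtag
Catsperg1, chr7:29214036-29214283, minus strand: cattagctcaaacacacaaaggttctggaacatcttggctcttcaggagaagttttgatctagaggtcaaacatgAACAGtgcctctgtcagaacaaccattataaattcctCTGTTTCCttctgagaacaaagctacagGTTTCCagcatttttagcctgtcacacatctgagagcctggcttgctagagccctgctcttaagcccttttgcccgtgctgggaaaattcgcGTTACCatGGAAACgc

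The Catsperd window held 2 AACNG and 2 GTTNCC matches, and 1 of each overlap. The Catsperb window held 3 AACNG matches and no GTTNCC. The Catsperg1 window held 2 AACNG and 4 GTTNCC matches, with 1 of each overlapping, and its last pair, beginning 16 and 8 bases before the end of the window, faces inward as in an X-box, the paired site of RFX factors. Over 32851 RefSeq windows of 250 bases, AACNG was found in 74.2%, GTTNCC in 39.4% and TGACG in 17.8%, so single matches are common.

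Kcnu1 and Hvcn1 were low. Kcnu1 (ENSMUSG00000031576, chromosome 8, 25849623 to 25937939) codes for the pore of the sperm potassium channel. It had 0.551, 0.723, 0.668 and 0.572 FPKM in fl/fl testes and 0.497, 0.687, 0.619 and 0.441 FPKM in cKO testes, from 27 to 49 fragments each. The groups overlapped, and the log2 fold change was -0.15 (95% interval -0.58 to 0.29, limma adjusted p = 0.826), from -0.24 without cKO replicate 2 to -0.06 without cKO replicate 4. Its partner Lrrc52 had 4 fragments in all, in 2 of the 8 libraries.

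Hvcn1 (ENSMUSG00000064267, chromosome 5, 122206804 to 122242297) had 0.236, 0.356, 0.359 and 0.206 FPKM in fl/fl testes and 0.405, 0.545, 0.350 and 0.479 FPKM in cKO testes, from 11 to 31 fragments each. All cKO libraries but replicate 3 were above the fl/fl range. The log2 fold change was 0.50 (95% interval -0.02 to 1.01, limma adjusted p = 0.467), and the exact permutation test, two-sided, gave p = 0.0857. Of the Hvcn1 exon bases, 44.2% are shared with Tctn1, a ciliary transition zone gene on the opposite strand, which had 9.52 ± 1.39 FPKM in fl/fl and 9.07 ± 0.874 FPKM in cKO testes (SD, n = 4 each). The use of strand in counting is not given in the sources used here. In the shared bases, fragments of Hvcn1 therefore cannot be told apart from those of Tctn1. The summed level of 6 macrophage markers ranged from 12.1 to 24.8 FPKM in fl/fl and from 25.8 to 34.4 FPKM in cKO testes, with none of the 6 at 0 and the pan-leukocyte gene Ptprc at 0.110 FPKM or less. The 3 B cell markers summed to 1.38 to 1.76 and to 0.773 to 1.30 FPKM. The part of these cells in the Hvcn1 level was not tested.

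The test across all genes called none of the 10. The study's filter, a mean FPKM above 1 in both groups, left 12141 protein-coding genes, among them 5 of the 10 (Catsper2, Catsperb, Catsperd, Catsperg1 and Catsperg2). The study's thresholds are an adjusted p below 0.05 together with a log2 fold change beyond 1 in size. With these, limma called 0 of the 5 against 2 of 12141, or 0.0165%. The study's own count-based test, with the same thresholds, gave more differentially expressed autosomal genes from these libraries. The counts given here are therefore not the yield of the study's test. At an unadjusted p below 0.05, 3 of the 5 (Catsper2, Catsperb and Catsperd) were lower in cKO testes, where 5% of all genes tested were, and none was higher. Voom on the recovered fragments also called 0 of the 5, with 3 lower at an unadjusted p below 0.05 (4.83% of all genes tested). With a filter of 0.1 FPKM over all 8 libraries, 8 of the 10 were among 15937 genes tested. Again 0 were called (0.0125% of all genes), and 3 were lower at an unadjusted p below 0.05 (4.86% of all genes). Catsperd was the 1 of the 8 with each cKO library below each fl/fl library, as were 2.55% of the genes tested. The median log2 fold change of the 8 was -0.18, against 0.02 over all genes tested.

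Weighting the libraries by their scatter (limma array weights) gave, under the study's filter, fl/fl replicate 1 a weight of 0.161 and cKO replicate 3 a weight of 4.45. With these weights and the study's filter, 3 of the 5 had an adjusted p below 0.05: Catsperb with a log2 fold change of -0.91 (limma adjusted p = 0.0210), Catsperd with -0.84 (limma adjusted p = 0.0214) and Catsper2 with -0.65 (limma adjusted p = 0.0347). None of the 3 passed the fold threshold. Under the filter of 0.1 FPKM the weights were estimated anew. There 2 of the 8 had an adjusted p below 0.05, Catsperb and Catsperd, and Catsper2 did not (limma adjusted p = 0.0569). With the weights, an adjusted p below 0.05 was reached by 454 of the 12141 genes under the study's filter. Under the filter of 0.1 FPKM it was reached by 270 of 15937 genes.

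**Figure D2:**
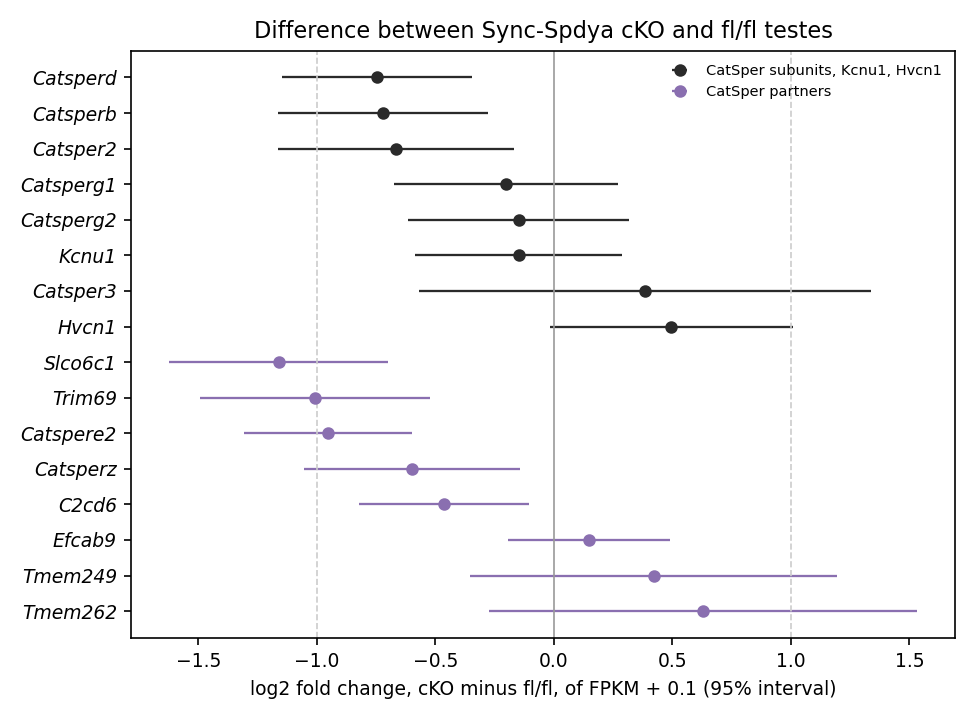
Log2 fold change of FPKM + 0.1 between cKO and fl/fl testes with its 95% interval (limma, 4 libraries against 4), for 8 of the 10 genes in black and 8 partners of the channel in purple. Dashed lines mark an absolute log2 fold change of 1. The intervals of Catsperd, Catsperb and Catsper2 and of 5 partners lie below 0, and none of these passed the adjusted test.

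Partners of the channel were taken from a list of 11 symbols, aliases included, for further subunits and associated proteins. Of these symbols 10 had a row. Of the 8 partners tested, 0 were called, 5 were lower in cKO testes at an unadjusted p below 0.05, and 4 had groups that did not overlap. Voom also called 0, with 5 lower at an unadjusted p below 0.05 (4.76% of all genes tested). Their median log2 fold change was -0.53. As for the 10 channel genes, these shares stand beside 4.86% and 2.55% of all genes tested.

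The epsilon subunit has a pair of genes on chromosome 1. Catspere2 (177983423 to 178172704) had 6.06, 6.20, 8.77 and 7.28 FPKM in fl/fl testes and 4.37, 3.75, 3.26 and 3.02 FPKM in cKO testes. The groups did not overlap, and the log2 fold change was -0.95 (standard error 0.16, 95% interval -1.31 to -0.60, limma adjusted p = 0.106). Its neighbour Catspere1 (177808550 to 177962233), which the table annotates as an unprocessed pseudogene and which therefore stood outside the tests of protein-coding genes, had 13.4, 13.4, 18.6 and 14.2 FPKM against 10.7, 8.83, 7.24 and 6.65 FPKM. These groups did not overlap either (exact permutation p = 0.0286, two-sided, the smallest possible). In a fit over genes of all annotated types, with the filter of 0.1 FPKM, Catspere1 did not pass (log2 fold change -0.84, limma adjusted p = 0.259). Of the different 100-base windows of Catspere1, 11.5% also occur in Catspere2 transcripts, so the pair is not fully separate. Catspere2 was 0.453 to 0.513 times Catspere1 in fl/fl and 0.408 to 0.455 times in cKO libraries.

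Among the small cytoplasmic subunits, Catsperz had 13.8, 15.7, 28.2 and 17.3 FPKM in fl/fl testes and 13.2, 10.7, 10.3 and 13.6 FPKM in cKO testes. The groups were next to each other, with 13.78 FPKM as the lowest fl/fl value and 13.65 FPKM as the highest cKO value, and the log2 fold change was -0.60 (95% interval -1.06 to -0.14, limma adjusted p = 0.333), or -0.38 without fl/fl replicate 3, its highest library. Of its exon bases 46.5% are shared with Kcnk4, a potassium channel gene on the same strand with 0.107 to 0.522 FPKM over the libraries. Its calcium-sensing partner Efcab9 had 0.899 to 1.11 FPKM and 1.02 to 1.20 FPKM, with a log2 fold change of 0.15 (95% interval -0.19 to 0.49, limma adjusted p = 0.778).

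C2cd6, which codes for a C2 domain protein needed to bring the channel to the tail membrane, had 18.7, 22.3, 30.3 and 24.8 FPKM against 21.0, 17.8, 15.2 and 15.1 FPKM. The groups overlapped, and the log2 fold change was -0.46 (95% interval -0.82 to -0.11, limma adjusted p = 0.339). Slco6c1, an organic anion transporter found with the channel, had 4.83, 5.38, 7.83 and 5.56 FPKM against 2.88, 3.11, 1.71 and 2.69 FPKM, without overlap (log2 fold change -1.16, standard error 0.21, limma adjusted p = 0.110). Trim69, a ubiquitin ligase gene, had 3.88, 4.50, 7.73 and 5.82 FPKM against 2.98, 2.99, 2.51 and 2.00 FPKM, also without overlap (log2 fold change -1.01, standard error 0.22, limma adjusted p = 0.147). The membrane proteins Tmem249 and Tmem262 had at most 0.379 and 0.662 FPKM, with 95% intervals of the log2 fold change from -0.35 to 1.19 and from -0.28 to 1.53. C2cd6b, annotated as a lincRNA, had 5.30 to 15.5 FPKM and 5.81 to 13.3 FPKM. With array weights and the filter of 0.1 FPKM, 3 partners were called, Catspere2, Slco6c1 and Trim69, while 87 of 15937 genes were called.

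**Figure D3:**
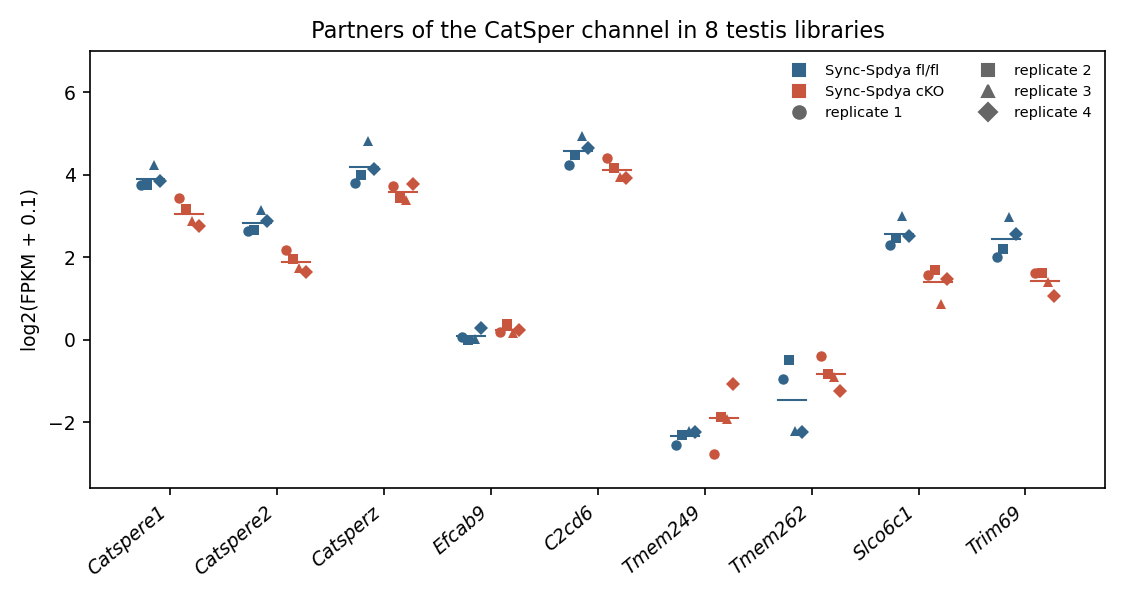
Level of 9 partners of the CatSper channel in the 8 testis libraries, as log2(FPKM + 0.1), drawn as for the channel genes, with a line at each group mean. The groups do not overlap for Catspere1, Catspere2, Catsperz, Slco6c1 and Trim69.

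A list of 14 other genes of sperm ion transport, all with a row, had 10 genes tested. None was called (0.0125% of all genes tested), 2 were lower in cKO testes at an unadjusted p below 0.05 (4.86% of all genes tested), none was higher, and the median log2 fold change was -0.23. Voom also called none, with 3 lower at an unadjusted p below 0.05 (4.76% of all genes tested). Slc9c1, the sperm sodium-proton exchanger, had 1.77, 1.62, 2.38 and 1.67 FPKM against 1.67, 0.726, 1.02 and 1.09 FPKM (log2 fold change -0.71, standard error 0.24, limma adjusted p = 0.317). Slc26a8, an anion transporter of sperm, had 6.18, 8.86, 11.7 and 7.37 FPKM against 6.45, 5.83, 5.01 and 5.80 FPKM (log2 fold change -0.52, standard error 0.18, limma adjusted p = 0.343). Slc9b1, another exchanger of the sperm tail, had 10.7 to 16.1 FPKM against 8.67 to 11.5 FPKM (log2 fold change -0.34, standard error 0.15, limma adjusted p = 0.454). For each of these 3 the groups overlapped.

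Levels of cell type markers were set beside these values, and no marker named here passed the test. The 7 pachytene markers summed to 832 to 1354 FPKM in fl/fl and to 645 to 998 FPKM in cKO testes, none was at 0, and 6 of the 7 had a lower mean in cKO testes, the exception being the testis histone gene Hist1h1t with 0.279 ± 0.0531 and 0.667 ± 0.242 FPKM (SD, n = 4 each). Ldhc, the germ cell lactate dehydrogenase, differed by -0.73 on the log2 scale (SE 0.23, limma adjusted p = 0.304), and Ccna1, the meiotic cyclin A, by -0.72 (SE 0.19, limma adjusted p = 0.212). The other 4 with a lower mean were closer to 0, at -0.40 for Piwil1, -0.30 for Hspa2, -0.29 for Mybl1 and -0.02 for Pgk2. The mean log2(FPKM + 0.1) of the 7 was 4.42 ± 0.19 in fl/fl and 4.20 ± 0.28 in cKO testes (SD, n = 4 each), a difference of -0.21 that is within the spread of the libraries. Each marker counts alike in this mean. Hist1h1t, below 1 FPKM and with a log2 fold change of 0.96, thus made the difference smaller in size. The centring and the correlation below use the same mean. The difference of such means was -0.28 for the early meiotic markers, 0.17 for spermatogonia, 0.15 for Sertoli, 0.17 for peritubular, 0.54 for Leydig, 0.58 for endothelial and 0.52 for macrophage markers. It was -0.30 for B cell and -0.13 for spermatid markers. Genes within a list differed. Stra8 was at -1.46 and Meiob at 0.69 among the early meiotic markers. Acta2 was at 0.57 and Tagln at -0.22 among the peritubular markers. Centring each library on the mean of the pachytene markers, a step added after the data were seen, left log2 fold changes of -0.53 for Catsperd, -0.51 for Catsperb and -0.45 for Catsper2 (limma adjusted p of 0.454, 0.468 and 0.459), while those of Catsperg1, Catsperg2 and Kcnu1 turned to 0.01, 0.06 and 0.06. In whole testes, fewer cells of a type and less RNA per cell cannot be told apart, and the part of the cell types in these levels was not otherwise tested.

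Over the 8 libraries the mean log2 level of the 5 subunits above 1 FPKM had a Pearson r of 0.711 and a Spearman rho of 0.643 with the mean of the pachytene markers. Without the 2 libraries farthest from the median of the markers r was 0.226, so the relation rests on those libraries. It was 0.347 within fl/fl and 0.956 within cKO libraries, with 4 points each that share their library's scaling. Replicate 3 of the fl/fl group held the highest value of 4 of the 5 subunits and of 7 of the 10 partners.

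**Figure D4:**
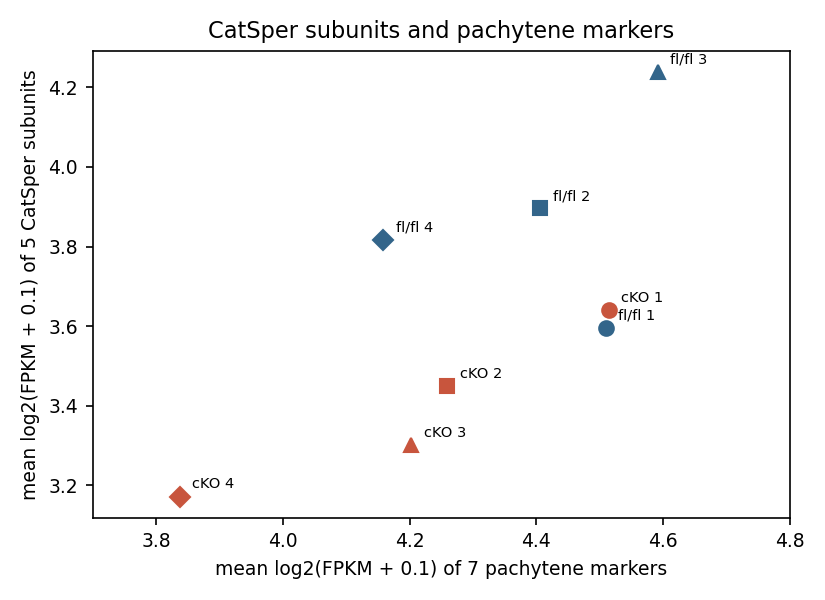
Mean log2(FPKM + 0.1) of Catsper2, Catsperb, Catsperd, Catsperg1 and Catsperg2 against that of 7 pachytene markers, 1 point per library. Replicate 3 of the fl/fl group lies highest and cKO replicate 4 lowest on both axes, and fl/fl replicate 1 lies beside cKO replicate 1.

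The genes whose levels most resembled the mean log2 level of the 10 over the 8 libraries were Clcn6, an endosomal chloride-proton exchanger (r = 0.973), Depdc5 (r = 0.969), Noxred1 (r = 0.967), Stpg4 (r = 0.962) and Iqce (r = 0.951), among 12339 genes ranked. This likeness is a description over 8 libraries. It was chosen as the highest of many, and low genes such as Catsper3 have a large share in the mean.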

How the data were processed

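The authors deposited FPKM values for testis libraries of 4 fl/fl and 4 cKO mice in a table and in a file per library with the same values (8 of 8 equal). The submitters' processing notes name GRCm38 and mm10. The aligner, the counting tool and the use of strand are not given in the sources used here. Of the genes, 98.3% had the coordinates of GENCODE vM21. FPKM multiplied by gene length gave whole fragments for 100% of values (tolerance 0.02), which were used for depth and for voom.

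The test was limma 3.58.1 in R 4.3.3 (lmFit, then eBayes with trend) on log2(FPKM + 0.1), which understates the change of low genes, with Benjamini-Hochberg adjustment over all genes tested. The study's own count-based test was not run here. Single levels were compared with exact permutation tests. Genes with a mean above 1 FPKM in both groups were tested, and Kcnu1, Hvcn1, Catsper3, the partners and the transport genes with a mean above 0.1 FPKM over all libraries. Intervals and standard errors come from the second fit.

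The 10 genes and the lists were chosen with earlier results of these data known. All 10 are named, with partners in the complex, Lrrc52 and the 3 genes of the smallest p of each list, and the 5 genes most like the 10. The letters AACNG and GTTNCC replaced narrower ones after those found few matches. Alternatives were other pseudocounts, filters, scalings, array weights, a block for the replicate number, voom, eBayes with no trend and each library left out.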

Additional observations from a re-analysis of the deposited data

Results flagged for a closer look

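A gap test within groups of 4 libraries was made on 37 groups of the channel genes and partners, where chance flags about 1 in 20, and it marked 2 values. Catspere1 in fl/fl replicate 3 was 18.6 FPKM, far above the 13.4 to 14.2 FPKM of the other fl/fl libraries. Catsper4 in cKO replicate 2 was 0.119 FPKM, from 4 fragments, where the other cKO libraries were at 0. With all other values at 0 the gap fills the whole range whatever the value, so the stated rate does not apply to this flag.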

How the results depend on the processing

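Up to 20 alternatives were run for each result, 8 of which left out 1 library. A filter of 5 FPKM gave no value for 10 of the named genes. With array weights the number of channel genes at an adjusted p below 0.05 moved from 0 to 3 under the study's filter, and the number of partners called moved from 0 to 3 under the filter of 0.1 FPKM. Genes and libraries were those of the reported fits, and the weights alone differed. Centring on the pachytene markers, added after the data were seen, turned the median log2 fold change of the 8 channel genes from -0.18 to 0.0375, that of Catsperg1 to 0.0112, of Catsperg2 to 0.0638 and of Kcnu1 to 0.0640, none of which passed the test before or after. The other alternatives left 0 channel genes, 0 partners and 0 transport genes called. Leaving out 1 library at a time gave medians from -0.38 to -0.08 and 0 calls in each list. Both groups number their replicates 1 to 4. Libraries with the same number deviated from their group means with correlations of 0.0757 to 0.406. All 4 were positive, but libraries with different numbers were not compared, so these values cannot settle whether mice were paired. The reported fits assumed no pairing. With the replicate block 0 of the 10 were called and the median stayed at -0.18. For Catsper2 under the filter of 0.1 FPKM, the block gave a limma adjusted p of 0.107, against 0.329 without it. Depth limited Catsper1, Catsper3 and Catsper4, with 0, 32 and 5 fragments over all libraries, and 4 libraries a group limit the exact test to 0.0286.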
